A study of Mus musculus with 17 samples.

Results

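The genes described here carry antigen presentation by MHC class II: H2-Aa, H2-Ab1, H2-Eb1, H2-DMa, H2-DMb1, H2-Oa, H2-Ob, Cd74 and Ciita. These 9 genes were taken by name from the 37074 gene names on a 1-colour Agilent mouse array, each through its probe with the highest mean log2 signal, and all 9 probes were well above background on all 17 arrays. The colons of male C57BL/6J mice were compared in 4 groups: wild-type mice given vehicle (WT CONT, n = 4) or pregnenolone 16α-carbonitrile, a ligand of the mouse pregnane X receptor PXR (WT PCN, n = 4), and mice lacking PXR given vehicle (Pxr-/- CONT, n = 5) or PCN (Pxr-/- PCN, n = 4). PCN was injected intraperitoneally in corn oil at 100 mg/kg per day for 4 days, control mice received corn oil alone, and all mice were killed 6 h after the last injection. The WT mice were purchased at 6 weeks of age, whereas the Pxr-/- mice, backcrossed on C57BL/6J, were bred in house, so genotype and colony of origin cannot be told apart; 2 weeks of acclimatization preceded the allocation to groups. Of 6 mice allocated to each group, 4 or 5 have an array here, and p-values measure the spread between these arrays.

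MHC class II molecules are pairs of an α and a β chain that hold peptides of engulfed protein at the cell surface for CD4+ T cells. H2-Aa and H2-Ab1 encode the chains of I-A, and H2-Eb1 encodes the β chain of I-E, whose α chain gene is defective in C57BL/6 mice. Cd74 encodes the invariant chain, which guides the new pair to endosomes and blocks its groove. H2-DMa and H2-DMb1 encode H2-M, which exchanges the remnant of the invariant chain for peptide, and H2-Oa and H2-Ob encode H2-O, which restrains H2-M and is found mostly in B cells. Ciita encodes the class II transactivator, the coactivator that switches the family on. In the colon these genes are known from B cells, dendritic cells and macrophages, and from epithelium exposed to interferon-γ.

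CIITA does not touch DNA itself but is held at class II promoters by factors bound to an X box and, downstream of it, a Y box read by the factor NF-Y. The RefSeq promoter table (GRCm38.p6) held printable entries for 6 of the 9 genes: H2-Aa, H2-Eb1, H2-DMa, H2-DMb1, H2-Oa and H2-Ob. H2-Ab1, Cd74 and Ciita had no entry used here. The 120 bases before the start of transcription are shown for the 5 genes that held the letters TGATTGG (a Y box) with GNAAC (the start of an X box) 28 to 31 bases before it, first base to first base, because this shared arrangement is what marks the family. Each is written 5′ to 3′ on the gene's own strand, with those letters in capitals.
H2-Aa (chr17:34287824-34287943, minus strand): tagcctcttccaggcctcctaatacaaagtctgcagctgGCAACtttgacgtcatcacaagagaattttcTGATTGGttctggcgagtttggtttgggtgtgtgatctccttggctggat
H2-Eb1 (chr17:34305747-34305866, plus strand): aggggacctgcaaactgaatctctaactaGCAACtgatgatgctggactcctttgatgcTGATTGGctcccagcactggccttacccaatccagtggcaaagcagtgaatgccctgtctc
H2-DMb1 (chr17:34153071-34153190, plus strand): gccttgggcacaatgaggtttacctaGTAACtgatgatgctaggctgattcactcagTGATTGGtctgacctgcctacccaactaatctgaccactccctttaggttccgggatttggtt
H2-Oa (chr17:34092259-34092378, plus strand): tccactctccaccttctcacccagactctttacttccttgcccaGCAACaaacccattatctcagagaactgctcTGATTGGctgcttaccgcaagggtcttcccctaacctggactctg
H2-Ob (chr17:34238785-34238904, plus strand): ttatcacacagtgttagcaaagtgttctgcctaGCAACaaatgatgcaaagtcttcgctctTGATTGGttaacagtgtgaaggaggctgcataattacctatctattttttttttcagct

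The Y box began 45 bases before the start in H2-Oa and 63 bases before it in H2-DMb1, with the other 3 genes between them. Searched on both strands of the 250 bases upstream of 32851 annotated starts, TGATTGG was held by 7.23% of windows, GNAAC by 79.6%, and the spaced pair by 29 windows (0.0883%) of 28 genes. Besides the 5 genes shown, these include H2-Eb2 and genes outside class II, such as Atoh1, Dnmt1 and Six6. The spacing was chosen from the class II promoters themselves, so their share is a description. Neither H2-DMa window held TGATTGG on its own strand. Both windows (chr17:34122712-34122831 and chr17:34125398-34125517) lie inside the annotated gene, chr17:34119693-34139101. The bases before the gene's first base were thus not searched, and whether they hold these letters is not known here. A match of letters is no evidence of a bound factor.

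The array reads each gene with 60-base probes, and 4 are shown: the H2-Ab1 probe whose results differ from those of the brightest one, and the probes for H2-Oa, H2-Ob and H2-DMa to show what the array reads. In H2-Ab1 the brightest probe, A_55_P1962747, lies at chr17:34406296-34406355 of build mm9, whereas a fainter probe, A_55_P2741874, lies nearer the gene's start, at chr17:34404357-34404416. The probes for H2-Ob and H2-DMa cover more genome than their own 60 bases, 369 and 564 bases, as a probe across a splice junction does.
H2-Ab1, A_55_P2741874 (chr17:34404357-34404416, mm9): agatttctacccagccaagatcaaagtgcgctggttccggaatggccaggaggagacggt
H2-Oa, A_51_P449325 (chr17:34232033-34232092, mm9): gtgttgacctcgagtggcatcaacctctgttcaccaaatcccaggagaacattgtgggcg
H2-Ob, A_66_P130916 (chr17:34380481-34380849, mm9): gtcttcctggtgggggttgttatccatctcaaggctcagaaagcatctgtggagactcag
H2-DMa, A_51_P473734 (chr17:34274300-34274863, mm9): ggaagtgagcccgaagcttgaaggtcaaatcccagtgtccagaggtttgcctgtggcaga

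Some facts of the whole series bear on what follows. Between 62.7% and 71.0% of spots were well above background on each array. Of 136 pairs of arrays, 2 pairs under different labels were nearly identical: WT PCN 4 with Pxr-/- PCN 2 (SD of the log2 differences over all probes 0.172) and WT PCN 3 with Pxr-/- CONT 2 (0.198), against at least 0.297 in the other 134 pairs. The 9 class II genes differed by at most 0.10 within the first pair and 0.13 within the second, so results are given with all 17 arrays and with the 13 arrays outside these pairs. The 13 arrays are 4 of WT CONT, 2 of WT PCN (replicates 1 and 2), 4 of Pxr-/- CONT and 3 of Pxr-/- PCN. The probe for Nr1i2, the PXR gene, read log2 11.97 to 12.31 in WT CONT, 11.10 to 12.44 in WT PCN, 10.39 to 11.61 in Pxr-/- CONT and 10.95 to 11.93 in Pxr-/- PCN. WT CONT lay wholly above both Pxr-/- groups. WT PCN overlapped them: WT PCN 3 and 4, each near-identical to a Pxr-/- array, read 11.10 and 11.15, and WT PCN 1 and 2 read 12.44 and 11.85. Whether this probe lies in the deleted part is not given in the sources used here. All 9 epithelial markers listed, Krt8, Krt19, Krt18 and Krt20 brightest among them, were well above background on all 17 arrays. Acinar pancreas genes were bright on 3 arrays, at a mean log2 signal over 8 genes of 17.73 in WT CONT 4, 15.46 in WT PCN 3 and 15.42 in Pxr-/- CONT 2, and at 10.82 in WT PCN 1, against at most 6.79 elsewhere. Liver genes reached 11.58 in WT CONT 5, 9.05 in WT PCN 1 and 8.76 in WT PCN 2, against at most 7.13 elsewhere.

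None of the 9 class II genes passed the test in any of the 5 comparisons. All 9 had lower means in WT PCN than in WT CONT and all 9 had lower means in Pxr-/- CONT than in WT CONT. The groups overlapped in all 9 genes, however, and most of each gene's variance lay between mice of the same group. The genes moved together from mouse to mouse over a range of 2.75-fold (H2-DMa) to 7.80-fold (H2-Ob) between the highest and the lowest array.

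The classical chains come first. H2-Aa (the I-A α chain) had log2 signals of 12.42, 11.88, 11.48 and 12.76 in WT CONT replicates 2 to 5, 12.17, 11.03, 11.34 and 11.68 in WT PCN replicates 1 to 4, 11.74, 11.47, 11.43, 11.59 and 11.64 in Pxr-/- CONT replicates 1 to 5, and 11.59, 11.64, 11.60 and 11.68 in Pxr-/- PCN replicates 1 to 4. The WT arrays were spread widely and the Pxr-/- arrays lay in a narrow band inside that spread, so all groups overlapped. H2-Aa was 0.53 log2 lower with PCN in WT mice (SE 0.24, 95% interval -1.05 to -0.02, limma adjusted p = 0.956) and 0.58 lower in Pxr-/- CONT than in WT CONT (SE 0.23, interval -1.07 to -0.09, limma adjusted p = 0.336). Their unadjusted limma p-values, 0.0444 and 0.0226, were the only ones under 0.05 among the 9 probes used in the 5 comparisons.

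H2-Ab1 (the I-A β chain) read 15.40, 15.05, 14.69 and 15.78 in WT CONT, 15.23, 14.05, 15.02 and 14.88 in WT PCN, 15.51, 14.97, 14.85, 15.02 and 14.91 in Pxr-/- CONT, and 15.38, 14.97, 14.51 and 14.89 in Pxr-/- PCN. The highest array, WT CONT 5, and the lowest, WT PCN 2, were both WT, and every group overlapped every other. Its differences were -0.37 for PCN in WT mice (SE 0.26), -0.08 for PCN in Pxr-/- mice (SE 0.24) and -0.21 for genotype in control mice (SE 0.24). H2-Eb1 (the I-E β chain) followed the same order, from 13.98 in WT PCN 2 to 15.50 in WT CONT 5, with differences of -0.28, -0.08 and -0.17.

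**Figure D1:**
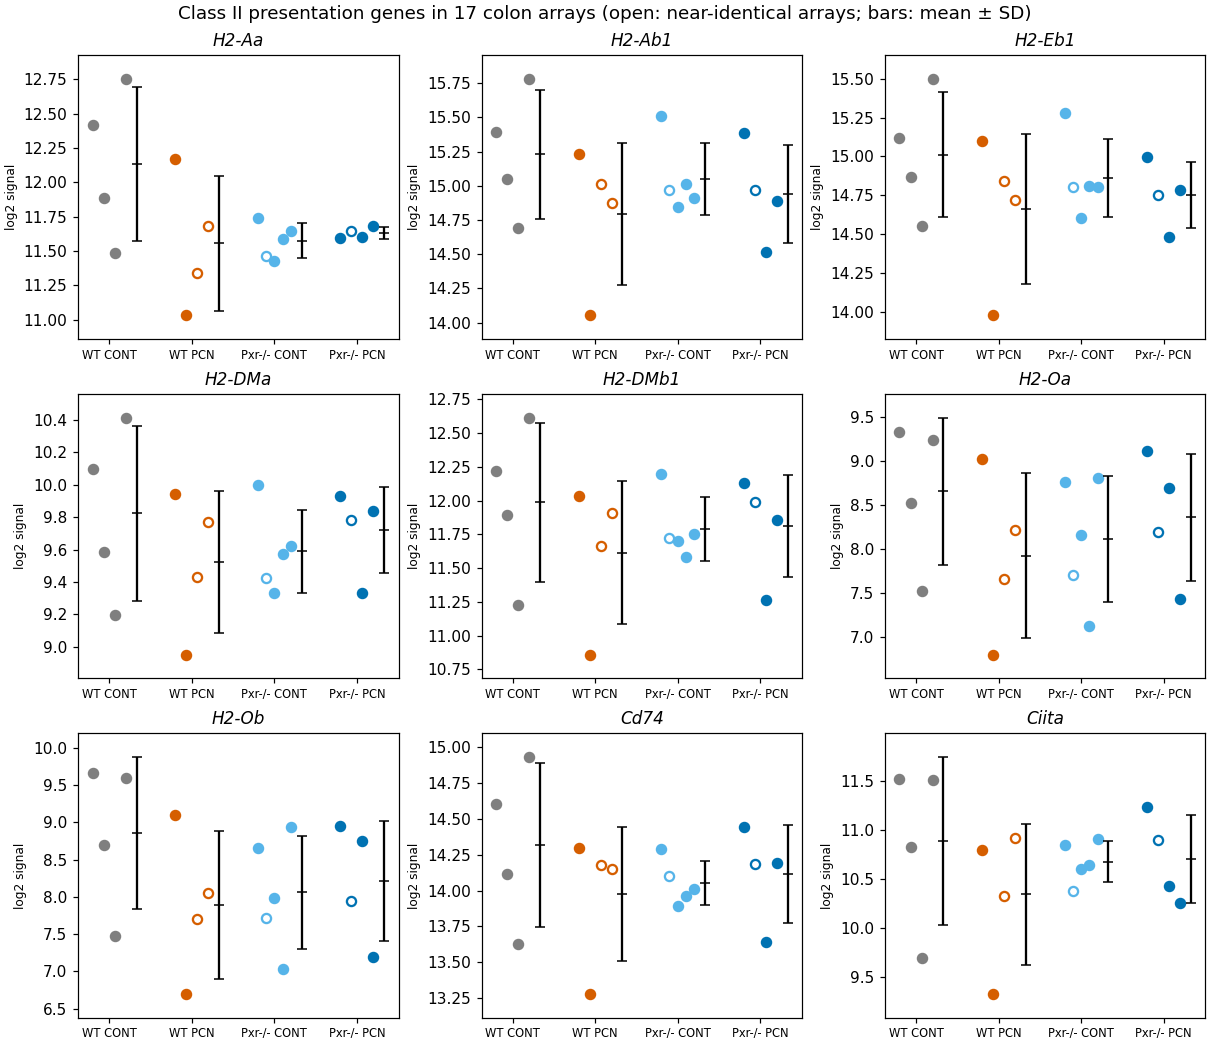
Log2 signal (y axis) of each of the 9 genes on the 17 arrays, by group (x axis), in replicate order from left to right, with bars for the mean ± SD of a group and open circles for the 4 arrays of the near-identical pairs; y axes differ between genes. WT PCN 2 is the lowest array in all 9 panels, and H2-Aa spans 0.31 log2 over the 9 Pxr-/- arrays against 1.73 over the 8 WT arrays.

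The genes that load peptide behaved alike. Cd74, the invariant chain, read 14.60, 14.12, 13.63 and 14.93 in WT CONT, 14.30, 13.28, 14.18 and 14.15 in WT PCN, 14.29, 14.10, 13.89, 13.97 and 14.01 in Pxr-/- CONT, and 14.45, 14.19, 13.64 and 14.20 in Pxr-/- PCN. Again WT CONT 5 was highest and WT PCN 2 lowest, and the group differences (-0.29 for PCN in WT mice, 0.09 for PCN in Pxr-/- mice, -0.29 for genotype in control mice) were smaller than their 95% half-widths. H2-DMa and H2-DMb1, the chains of the peptide exchanger H2-M, ranged over 8.95 to 10.41 and 10.86 to 12.61, with PCN differences in WT mice of -0.24 and -0.31.

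H2-Oa and H2-Ob, the chains of the H2-M inhibitor H2-O, spread most. H2-Ob read 9.66, 8.69, 7.47 and 9.59 in WT CONT, 9.11, 6.70, 7.70 and 8.05 in WT PCN, 8.65, 7.71, 7.98, 7.03 and 8.93 in Pxr-/- CONT, and 8.96, 7.95, 8.76 and 7.19 in Pxr-/- PCN. High and low arrays occurred in every group. Its differences were the farthest from 0 of the 9 genes, -0.88 (SE 0.59) for PCN in WT mice and -0.83 (SE 0.55) for genotype in control mice, yet their 95% intervals, -2.15 to 0.39 and -2.02 to 0.36, reached from falls of 4.42-fold and 4.04-fold to a rise. H2-Oa gave -0.65 (SE 0.53) and -0.58 (SE 0.50).

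Ciita, the transactivator, read 11.52, 10.82, 9.69 and 11.50 in WT CONT, 10.79, 9.32, 10.32 and 10.92 in WT PCN, 10.84, 10.38, 10.60, 10.64 and 10.91 in Pxr-/- CONT, and 11.23, 10.90, 10.43 and 10.25 in Pxr-/- PCN. WT PCN 2 was the lowest array and WT CONT 2 and 5 were the highest. WT CONT 4 was second lowest here and in Cd74, H2-DMa and H2-DMb1, and was not so in the other genes. PCN gave a difference of -0.54 (SE 0.40) in WT mice and 0.03 (SE 0.38) in Pxr-/- mice.

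Whether PCN alters class II genes in WT colon is the first comparison of the design. By limma with a Benjamini-Hochberg adjustment over 38703 probes, with a call at an adjusted p of at most 0.05 and a fold over 1.5, 0 of 9 genes were called, where 0% of all probes were; 1 gene, H2-Aa, and 4.66% of all probes had an unadjusted p under 0.05. All 9 differences were negative, with a median of -0.37, against a median of 0.00 and 50.1% negative over all probes. Since the 9 genes share their mice and vary together, their common sign is not 9 independent observations. With the 13 arrays the median was -0.54 and 0 of 9 were called, where 0.0491% of all probes were. That WT PCN group is WT PCN 1 and WT PCN 2 alone, and WT PCN 2 was the lowest of the 17 arrays in all 9 genes. From the 17 arrays, leaving out WT PCN 2 alone brought the median to -0.15, and leaving out WT CONT 4 alone brought it to -0.59. Within the first of the 2 wash baths (3 WT PCN and 2 WT CONT arrays) the median was -0.58 and 9 of 9 genes were lower, whereas in the other bath (1 and 2 arrays) it was 0.11 and 8 of 9 were higher.

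In Pxr-/- mice PCN gave differences from -0.08 (H2-Ab1) to 0.28 (H2-Oa), 7 of them positive, with a median of 0.07. Here too 0 of 9 genes were called, where 0.00517% of all probes were, and 0 of 9 had an unadjusted p under 0.05. Within the wash baths the median was 0.04 and 0.02. For H2-Aa the 95% interval was -0.41 to 0.56, and for H2-Ob -0.999 to 1.37. Without the 4 near-identical arrays 6 of the 9 differences were negative and the median was -0.01, with 0 of 9 called, where 0.0517% of all probes were.

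The response to PCN was then compared between genotypes by an interaction term. All 9 terms were negative, from -0.20 (H2-Eb1) to -1.07 (H2-Ob), with a median of -0.39. Of the 9 terms 0 were called, where 0% of all probes were, the smallest limma adjusted p was 0.848 (H2-Aa, -0.61, SE 0.33), and 0 had an unadjusted p under 0.05. With the 13 arrays, 2 of them WT PCN, the median was -0.52 and 0 of 9 were called, where 0.00258% of all probes were. A difference in response between genotypes was therefore not shown, and for H2-Ob the interval, -2.79 to 0.66, leaves a wide range of sizes.

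In control mice, 0 of 9 genes were called between genotypes, where 0% of all probes were, although all 9 were lower in Pxr-/- CONT, from -0.17 (H2-Eb1) to -0.83 (H2-Ob), median -0.26. H2-Aa alone had an unadjusted p under 0.05, as did 12.7% of all probes. The median ran from -0.60 without WT CONT 4 to -0.08 without WT CONT 5, the array with the liver transcripts, and was -0.19 with the 13 arrays, with 0 of 9 called there and 0% of all probes. Within the wash baths it was -0.43 (9 of 9 lower, 2 against 2 arrays) and -0.10 (7 of 9 lower, 3 against 2). When limma weighted arrays by how closely they followed the fit, H2-Aa was called (-0.85, adjusted p = 0.0216) among 552 of 38703 probes. The lowest weights went to WT CONT 4 (0.453), which carries the pancreas transcripts, and to Pxr-/- PCN 4 (0.478). The highest went to WT CONT 2 (2.47), Pxr-/- PCN 2 (2.31), WT CONT 5 (1.84), Pxr-/- CONT 3 (1.83) and WT PCN 4 (1.71). Of these, Pxr-/- PCN 2 and WT PCN 4 are a near-identical pair. In H2-Aa, WT CONT 5 and WT CONT 2 were the highest of all arrays and WT CONT 4 was the lowest of WT CONT.

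Under PCN the sign turned: all 9 genes were higher in Pxr-/- PCN than in WT PCN, from 0.03 (H2-Eb1 and H2-Aa) to 0.36 (Ciita), median 0.14. Again 0 of 9 were called, where 0% of all probes were, and 0 of 9 had an unadjusted p under 0.05. Without WT PCN 2 the median was -0.12, so this sign rested on that array. Within the wash baths the median was 0.17 (9 of 9 higher) and -0.10 (8 of 9 lower). With the 13 arrays (3 Pxr-/- PCN against 2 WT PCN, WT PCN 2 among them) the median was 0.24 and 0 of 9 were called, where 0.0207% of all probes were.

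**Figure D2:**
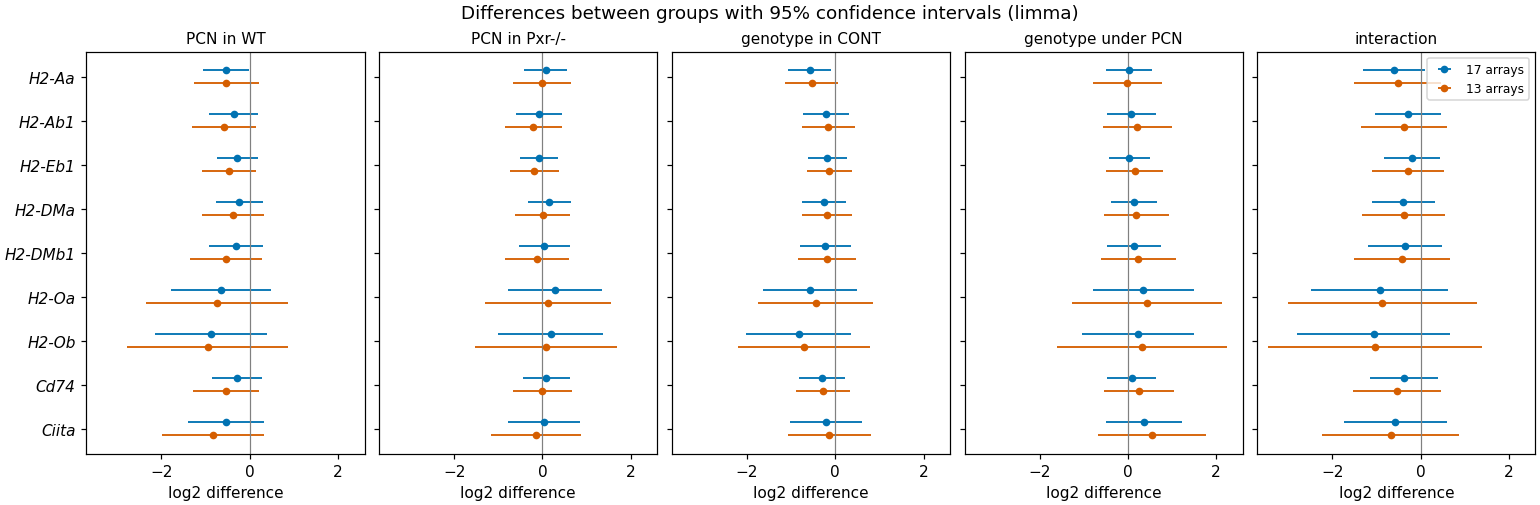
Log2 difference with its 95% confidence interval (x axis, limma) for each gene (y axis) in the 5 comparisons, with all 17 arrays and with the 13 arrays outside the near-identical pairs. With 17 arrays the intervals of H2-Aa for PCN in WT and for genotype in CONT lie below 0, and every other interval crosses 0.

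The spread between mice had a common shape. When each gene was centred on its mean over 17 arrays and the 9 deviations were averaged per array, WT CONT 5 (0.90) and WT CONT 2 (0.68) were highest, and WT CONT 4 (-0.53) and WT PCN 2 (-1.03) were lowest. All 9 genes were above their own mean on WT CONT 5, WT CONT 2, WT PCN 1 and Pxr-/- CONT 1, and 0 of 9 were above it on WT PCN 2, WT CONT 4, Pxr-/- CONT 2 and Pxr-/- CONT 3. Group membership held 9.92% (H2-DMb1) to 35.0% (H2-Aa) of a gene's variance, beside a median of 18.9% over all probes. The SD within groups ran from 0.35 (H2-Eb1) to 0.89 (H2-Ob), all above the median of 0.17 over all probes.

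**Figure D3:**
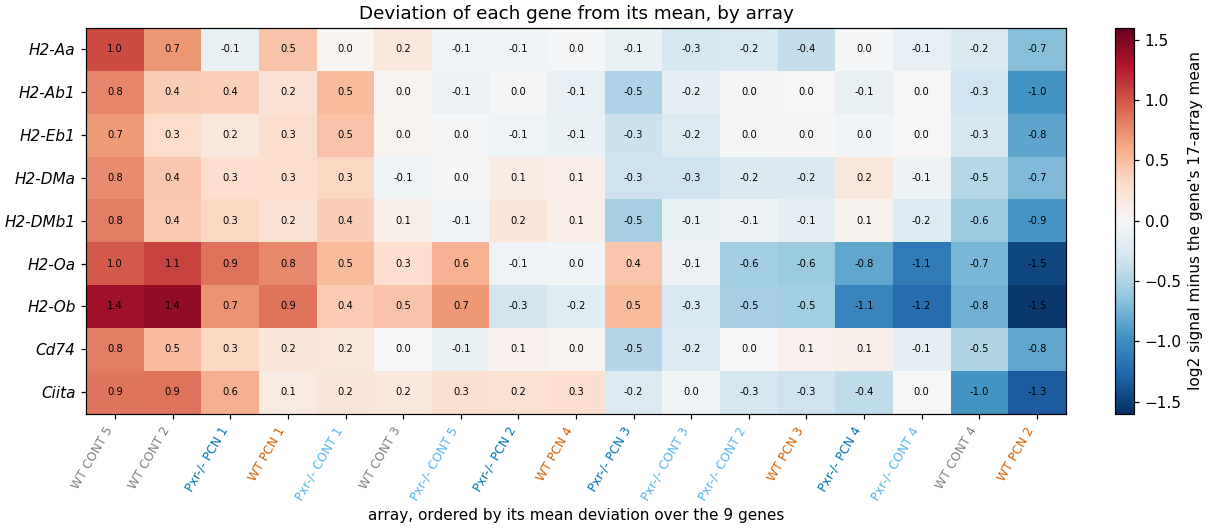
Deviation of each gene (rows) from its 17-array mean in log2 units (colour and printed value) on each array (columns, ordered by the mean deviation over the 9 genes; label colours mark the 4 groups). WT CONT arrays stand near both ends of the order, and the 2 arrays with the highest mean deviations, WT CONT 5 and WT CONT 2, reach 1.4 in H2-Ob.

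Over the 17 arrays the 36 pairs of class II genes had Pearson correlations between 0.685 (H2-Oa with Cd74) and 0.985 (H2-Ab1 with H2-Eb1), median 0.815. With group means removed the median was 0.825 and the closest pair was H2-Oa with H2-Ob (0.991), and with the 13 arrays the pairs ran from 0.708 to 0.988. These are descriptions: the points share their libraries, and 2 pairs of arrays are nearly the same measurement.

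The H2-O genes parted from the classical chains and Cd74 on a few arrays of both genotypes. The difference in log2 signal of H2-Ob minus H2-Ab1 was highest in WT CONT 2 (-5.74) and Pxr-/- PCN 3 (-5.76) and lowest in Pxr-/- CONT 4 (-7.99) and Pxr-/- PCN 4 (-7.70). WT CONT 2 stood above its mean over the 17 arrays in both genes, by 1.42 in H2-Ob and 0.39 in H2-Ab1. Pxr-/- PCN 3 was above its mean in H2-Oa (0.44) and H2-Ob (0.51) and below it in H2-Ab1 (-0.49), Cd74 (-0.47) and H2-DMb1 (-0.53). Pxr-/- CONT 4 and Pxr-/- PCN 4 went the other way, with H2-Ob at -1.22 and -1.05 while H2-Ab1 stood at 0.01 and -0.12.

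H2-Oa and H2-Ob followed the markers of B cells. The list held 10 genes, of which 9 were tested and Blk was too dim; Cd79b, a chain of the B cell receptor, Ms4a1, encoding CD20, and Cr2, the complement receptor of B cells, were among the brightest. The mean of the 9 ran from 6.68 in WT PCN 2 to 9.75 in WT CONT 2, with ranges of 7.43 to 9.75 in WT CONT, 6.68 to 8.78 in WT PCN, 6.88 to 8.76 in Pxr-/- CONT and 6.87 to 9.12 in Pxr-/- PCN. Its correlation with the mean of H2-Oa and H2-Ob was 0.981 over 17 arrays and 0.988 over 13. With the mean of H2-Aa, H2-Ab1, H2-Eb1 and Cd74 it was 0.729 and 0.737.

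No B cell marker was called in any comparison, and their differences had the sign of the class II genes: 9 of 9 were negative for PCN in WT mice (median -1.13), for genotype in control mice (-0.996) and for the interaction (-1.23). Ms4a1 differed by -1.52, -1.42 and -2.09 in these comparisons, and H2-Ob by -0.88, -0.83 and -1.07. In each of them 0 of 9 B cell genes had an unadjusted limma p under 0.05, beside 4.66%, 12.7% and 5.38% of all probes. In bulk tissue fewer B cells and less RNA per cell cannot be told apart, and the part of the B cell share in the class II values was not tested. Among 23556 genes measured, the 3 most like the H2-Oa and H2-Ob mean were Tnfrsf13c, the receptor for the B cell survival factor BAFF (r = 0.986), the transcript ENSMUST00000177715 (0.984) and Ms4a1 (0.981), a search made after the values were seen.

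Other lists stood between. The 6 lymphoid stroma genes, led by Ccl21a, Ltb, Cxcl13 and Ccl19, which organise lymphoid follicles, had a mean that correlated at 0.959 with H2-Oa and H2-Ob and at 0.712 with the classical chains. For 8 of 9 dendritic cell genes tested, led by Itgax, Clec10a, Ccr7 and Batf3, the values were 0.861 and 0.676. Macrophage genes (12, led by Lyz2, Csf1r, C1qc and Cd14) gave 0.349 and 0.335, and WT PCN 2, lowest of all in class II, stood among the highest in them (11.31 in a range of 10.60 to 11.47). T cell genes (8, led by Cd3e, Cd4, Cd2 and Cd3d) gave 0.202 and 0.636, and the 9 epithelial genes -0.747 and -0.549. None of these lists had a gene called in any comparison, with 17 or 13 arrays. Lymphoid stroma and dendritic cell genes mostly had the class II sign for PCN in WT mice, genotype in control mice and the interaction. With 17 arrays all 6 stroma genes were negative in each (medians -0.44, -0.57 and -0.69), and 0, 2 and 1 had an unadjusted limma p under 0.05. Of 8 dendritic cell genes 6 were negative in each (medians -0.06, -0.15 and -0.22), and 0 were under 0.05. Over all probes 4.66%, 12.7% and 5.38% were. After PCN in WT mice 9 of 12 macrophage genes were higher with the 17 arrays (median 0.09), the opposite sign to the class II genes. Of these 12 genes 2 had an unadjusted limma p under 0.05, beside 4.66% of all probes. With the 13 arrays, 2 of them WT PCN, 10 of 12 macrophage genes were higher (median 0.46). There 6 of 12 were under 0.05, beside 4.68% of all probes. For genotype in control mice, 11 of 12 macrophage genes were lower in Pxr-/- mice with the 17 arrays (median -0.31), the class II sign. For genotype under PCN, 11 of 12 were also lower (median -0.21), the opposite sign to class II. In these, 3 and 0 of 12 were under 0.05 with the 17 arrays, and 4 and 4 with the 13 arrays. The interaction was negative in 9 of 12 with the 17 arrays and positive in 10 of 12 with the 13 arrays. Among the 5 adipocyte genes Fabp4, Cidec, Adipoq and Lep were the brightest. Over the 17 arrays their median was -0.69 for PCN in WT mice and -0.80 for genotype in control mice. In each, 3 of 5 had an unadjusted limma p under 0.05, beside 4.66% and 12.7% of all probes, and 0 were called. With the 13 arrays, 2 of them WT PCN, the median for PCN in WT mice was -0.49 and 0 of 5 were under 0.05. For genotype in control mice the 13 arrays gave a median of -0.81, with 3 of 5 under 0.05. Over the 17 arrays the adipocyte mean correlated at 0.196 with the classical chains and -0.132 with H2-Oa and H2-Ob. The part of the macrophage or adipocyte list in the class II differences was not tested.

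**Figure D4:**
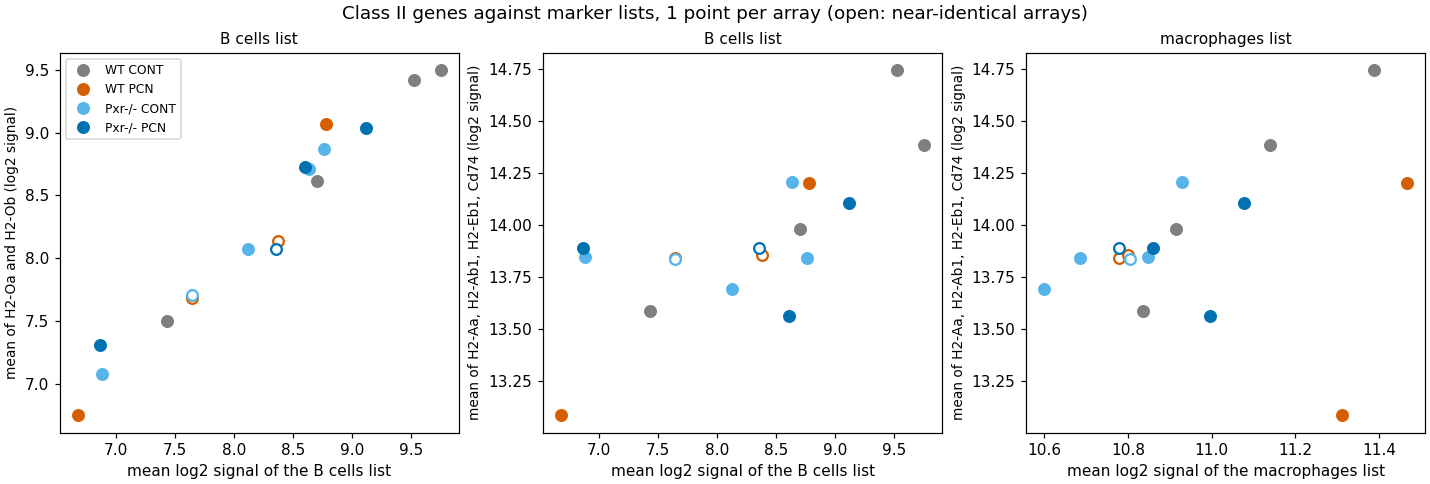
Mean log2 signal of H2-Oa and H2-Ob, or of H2-Aa, H2-Ab1, H2-Eb1 and Cd74 (y axes), against the mean log2 signal of the B cell or macrophage list (x axes), 1 point per array, coloured by group, open for the near-identical arrays. The H2-O genes lie along a line with the B cell list (r = 0.981), the classical chains follow it more loosely (0.729), and they lie farther still from a line with the macrophage list (0.335).

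The genes most like the classical chains were different ones. Over 17 arrays the mean of H2-Aa, H2-Ab1, H2-Eb1 and Cd74 was matched best by Gimap4 (r = 0.924, 0.937 over 13 arrays) and Gimap7 (0.919, 0.936), GTPases of lymphocytes. Then came Slamf8 (0.910, 0.911), a receptor of myeloid cells, Rassf5 (0.909, 0.940), a Rap effector of lymphocyte adhesion, and Aif1 (0.905, 0.908), a macrophage protein. Scimp (0.904, 0.916), an adaptor of antigen-presenting cells, Csprs (0.889, 0.914) and Gimap1os (0.887, 0.927) closed the list of 8. Their expression in lymphocytes and myeloid cells is background, and no shared control is read from a correlation.

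H2-Aa varied little among Pxr-/- arrays. Over the 9 Pxr-/- arrays it ranged from 11.43 to 11.74 (SD 0.10) and over the 8 WT arrays from 11.03 to 12.76 (SD 0.58). The ratio of the SDs, 0.171, was lower in 0.106% of all probes, whose median ratio was 0.995. On the probes used for the other 8 genes the ratio ran from 0.395 (Ciita) to 0.754 (H2-Oa), so each of the 9 varied less among Pxr-/- than among WT arrays. The spread depended on the probe: in H2-Ab1 the brightest probe gave SDs of 0.29 over Pxr-/- and 0.51 over WT arrays (ratio 0.573), and probe A_55_P2741874 gave 0.16 and 0.55 (ratio 0.281). No other H2-Aa probe was on the array, so its narrow band could not be read with a second probe. Without the near-identical arrays the ratio for H2-Aa was 0.155, from 7 and 6 arrays. WT CONT 5, the highest array, and WT PCN 2, the lowest, both had raised liver transcripts, whose part in this was not tested. This ratio was chosen after the values were seen and has no test.

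H2-Aa was also set against its partner chain on each array, with the brightest H2-Ab1 probe. The difference in log2 signal of H2-Aa minus H2-Ab1 was -2.98, -3.17, -3.21 and -3.03 in WT CONT and -3.77, -3.50, -3.42, -3.43 and -3.26 in Pxr-/- CONT, and the groups did not overlap. The level of such a difference depends on the 2 probes, so only its change between arrays can be read. With probe A_55_P2741874 in place of the brightest the values were -0.58 to -0.44 in WT CONT and -0.63 to -0.46 in Pxr-/- CONT, and they overlapped. Against H2-Eb1 the difference again did not overlap in control mice (-3.07 to -2.70 in WT, -3.54 to -3.16 in Pxr-/-), nor did it against Cd74 (-2.24 to -2.14 and -2.64 to -2.37), while under PCN the genotypes overlapped for all 3 genes, with means of H2-Aa minus H2-Ab1 of -3.24 in WT and -3.31 in Pxr-/- mice. These contrasts were chosen after the values were seen and have no test, and the share of all pairs of probes whose difference does not overlap between these groups was not computed. Probe A_55_P2741874 and the brightest one correlated at 0.843, and its own genotype difference in control mice was -0.56 (SE 0.23, limma adjusted p = 0.352), beside -0.21, -0.24 and -0.34 for the other 3 H2-Ab1 probes. H2-Aa correlated with A_55_P2741874 at 0.990 over the 8 WT arrays and 0.651 over the 9 Pxr-/- arrays, and with the brightest probe at 0.923 and 0.350.

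**Figure D5:**
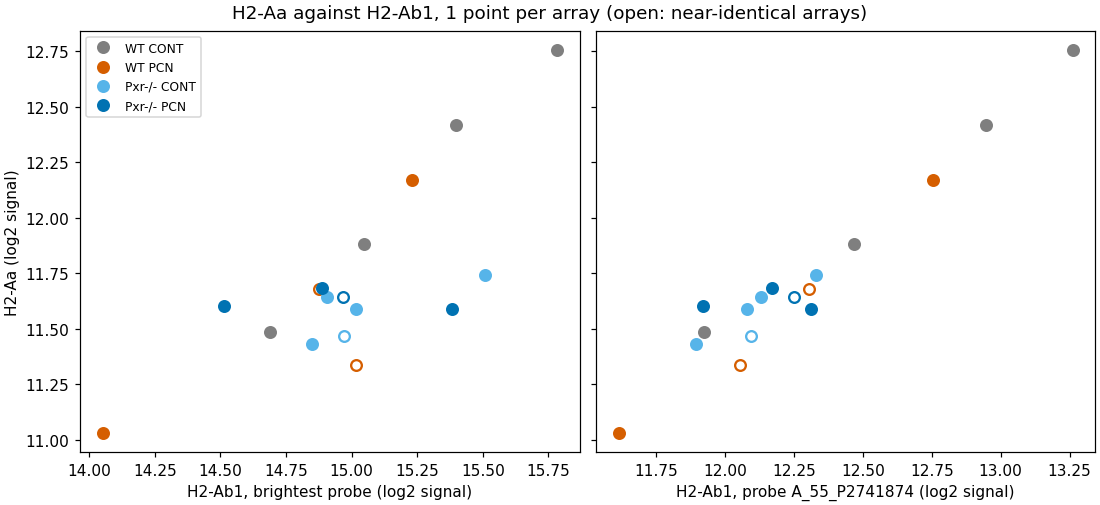
Log2 signal of H2-Aa (y axis) against the brightest H2-Ab1 probe (left, x axis) and against probe A_55_P2741874 (right, x axis), 1 point per array, coloured by group, open for the near-identical arrays. On both sides the WT arrays spread along a line, and the Pxr-/- arrays stay between 11.43 and 11.74 in H2-Aa.

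None of the rest of the class II pathway passed the test in any comparison. Of 18 further genes 17 were tested, and H2-Ea-ps, the defective I-E α chain gene, was well above background on 1 array. PCN in WT mice gave 14 of 17 negative differences (median -0.08), and genotype in control mice gave 12 of 17 (median -0.15). The brightest were the proteases that cut the invariant chain and antigen, Ctss (-0.12 for PCN in WT mice), Ctsl (-0.05) and Lgmn (0.22), and the NF-Y subunit Nfyc (0.04). Where the sequences above share an X and a Y box, the genes for the factors that bind them gave these differences for PCN in WT mice: Rfx5 -0.10, Rfxank -0.23, Rfxap -0.04, Nfya -0.42 and Nfyb -0.02. Nfya (SE 0.17, limma adjusted p = 0.956) was the 1 gene of the 17 with an unadjusted limma p under 0.05 there. The B cell gene H2-DMb2 and H2-Eb2, whose promoter window holds the spaced pair, gave -0.69 and -0.49. The last 7 genes are named for their roles, with their values known.

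The interferon-γ and class I lists were read in the same comparisons, and 0 of their genes were called in any of them. In control mice all 13 class I genes, led by H2-K1 (0.34), Psmb10 (0.20), B2m (0.54) and H2-D1 (0.19), were higher in Pxr-/- than in WT mice, with a median of 0.23 (0.21 with the 13 arrays). Of these genes 1 had an unadjusted limma p under 0.05 with 17 arrays, beside 12.7% of all probes, and 1 with the 13 arrays. Under PCN 12 of the 13 were higher in Pxr-/- mice as well, with a median of 0.22 (0.43 with the 13 arrays). There 0 of 13 were under 0.05 with 17 arrays and 5 with the 13 arrays, beside 3.28% and 7.56% of all probes. For PCN in WT mice 12 of 13 were positive with 17 arrays (median 0.12) and 10 of 13 negative with 13 arrays (median -0.13). The interaction turned likewise, from 11 of 13 positive (median 0.09) to 11 of 13 negative (median -0.26). Nlrc5, the class I counterpart of Ciita, differed by 1.01 between the genotypes in control mice and Ciita by -0.21. Of 10 interferon-γ genes 7 were negative there (median -0.08), with Irf1 (-0.02), Ifngr1 (-0.21), Irf8 (-0.11) and Ifngr2 (-0.32) the brightest. The interferon-γ genes were negative in 7 of 10 for PCN in WT mice (median -0.07) and for the interaction (median -0.11). For genotype under PCN 7 of 10 were positive (median 0.05), and 6 of 10 with the 13 arrays. Most thus had the class II signs, with medians near 0. Over all probes 50.1%, 51.3% and 46.8% of the differences were negative in these comparisons. The genes of each list, class I included, share their mice, so such counts are no test. Socs1, an inhibitor of cytokine signalling, differed by 0.65 between the genotypes in control mice. Over the 17 arrays the class I mean correlated with the classical class II chains at 0.316 and the interferon-γ mean at 0.461, both below the B cell list. Socs1 and Nlrc5 were named after their values were seen.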

How the data were processed

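RNA from mouse colon was hybridised to SurePrint G3 Mouse GE v2 8x60K arrays by the study's authors, who deposited the scanner intensity files (Agilent Feature Extraction 10.10.1.1) and a table of normalized log2 values. Median signals were taken without background subtraction, spots marked as outliers were set to missing, and log2 intensity was quantile-normalized between arrays and averaged per probe. The deposited log2 values served as an alternative. Their columns all have a median of 8.44, were matched to their own scanner files (r between 0.99955 and 0.99967), and their centring beyond quantile normalization stays unknown. The normalization that the methods name could not be repeated and was replaced by quantile normalization. Probes well above background on at least 4 arrays were tested (38703 of 56605). limma 3.58.1 in R 4.3.3 was fitted over 17 arrays with group and wash bath (2 baths), with Benjamini-Hochberg adjustment, and a call is an adjusted p of at most 0.05 with a fold over 1.5, as in the methods of the study. The fit was tested on simulated data. The 17 arrays lie on 8 slides, taken as a random block in an alternative. Groups and replicate numbers came from the sample labels. The 17 arrays, and not counts of reads, limit the precision.

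All 9 members were named in each comparison, with up to 4 of the brightest genes of each other list and the 8 genes most like the classical chains. The members and lists were chosen with earlier results of these data known. Alternatives were the authors' log2 values, 75th percentile scaling, normexp background correction, filters on dim probes, no wash bath term, slide and replicate blocks, array weights, other sets of arrays, all probes of a gene, and another threshold. Coordinates of probes are those of the array file (mm9) and promoters are from RefSeq (GRCm38.p6). Chromosome 18 sequence, which holds Cd74, is not reported here.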

Additional observations from a re-analysis of the deposited data

Results flagged for a closer look

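A gap test within groups of 4 or 5 arrays (Dixon's, at its 95% critical value) was run on the 9 genes in 4 groups, 36 sets in all, and marked 3. Chance marks about 1 in 20. In Pxr-/- CONT the array of replicate 1 stood above the other 4 in H2-Ab1 (15.51, next 15.02) and in H2-DMb1 (12.20, next 11.75). In WT PCN the array of replicate 2 stood below the others in Cd74 (13.28, next 14.15). WT PCN 2 was also the lowest array of all 17 in all 9 genes and had the lowest B cell marker mean (6.68).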

How the results depend on the processing

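The count of class II genes called stayed at 0 in the 5 comparisons under the alternatives tried, with 1 exception. With array weights 1 gene was called for genotype in CONT (H2-Aa, -0.85, limma adjusted p = 0.0216), where 552 of 38703 probes were. Of the other alternatives counted over all probes, none called more than 39 probes in a comparison. A count of 0 is therefore not particular to the class II genes. The numbers of the replicates do not pair the arrays: 22 pairs with the same number correlated at -0.33 to 0.49 and 86 other pairs at -0.49 to 0.62. With a replicate block 0 genes were called, and the median difference of the 9 genes after PCN was -0.55 in WT and 0.13 in Pxr-/- mice, and it was -0.31 for genotype in CONT, 0.25 for genotype under PCN and -0.58 for the interaction. With slide as a random block the median for PCN in WT was -0.36.

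Some signs turned. For PCN in Pxr-/-, array weights gave 0.030 for H2-Ab1 and 0.0074 for H2-Eb1, and the 13 arrays gave -0.014 for H2-Aa, -0.12 for H2-DMb1, -0.0026 for Cd74 and -0.15 for Ciita. For genotype under PCN, H2-Aa gave -0.014 with the 13 arrays, and a fit of those 2 groups alone gave -0.014 for H2-Aa and -0.0078 for H2-Eb1.

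Leaving out 1 replicate at a time turned further signs. For genotype in CONT, Ciita ran from -0.67 to 0.024. For genotype under PCN, the ranges were -0.12 to 0.26 for H2-Aa, -0.14 to 0.19 for H2-Ab1, -0.17 to 0.15 for H2-Eb1, -0.027 to 0.25 for H2-DMa, -0.087 to 0.31 for H2-DMb1, -0.12 to 0.70 for H2-Ob and -0.12 to 0.23 for Cd74. For PCN in Pxr-/-, they were -0.20 to 0.015 for H2-Ab1, -0.17 to 0.21 for Ciita, -0.063 to 0.65 for H2-Ob and -0.058 to 0.19 for H2-DMb1. No class II gene was called with any replicate left out, where at most 26 of all probes were called in a comparison. The cause of these turns was not tested.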
